A study of Mus musculus with 20 samples.

Results

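Tuft cells were followed through 8 genes that mark them in the mouse gut, Dclk1, Pou2f3, Trpm5, Il25, Avil, Sh2d6, Alox5 and Gfi1b, each taken as the row of the gene count table whose Ensembl identifier carries that symbol. All 8 of 8 had a row among the 26619 genes of the table, and 7 passed the filter on low counts that left 17893 genes for testing. The samples were pieces of whole distal colon, cut near the anus, from 20 C57BL/6 mice (n = 5 mice per diet). All mice, controls included, had eaten the Total Western Diet (TWD), made to resemble what people in the United States eat, for 6 weeks after weaning, and then for 3 more weeks the TWD with resistant potato starch (RPS, raw potato starch in the labels) at 0, 2, 5 or 10% of the weight. The 0% RPS mice stayed on the TWD alone. Total counts ran from 31.3 to 35 megacounts at 0% RPS, 24.5 to 31.1 at 2%, 22.3 to 30.4 at 5% and 18.4 to 26.6 at 10% RPS. Every control library was thus deeper than every RPS library, so depth and diet go together in each comparison with the controls. Values at 10% RPS carry the most counting error. For 3 mice, RS10_717, RS10_725 and RS10_748, a second label gives another RPS level, and the description label was used.

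Tuft cells are rare chemosensory cells of the gut epithelium. They sense succinate, parasites and other luminal signals through a taste-like cascade that ends in the cation channel Trpm5, and they answer with the cytokine Il25, with eicosanoids made by enzymes such as Alox5, and with acetylcholine. Il25 acts on type 2 lymphoid cells, whose Il13 makes the epithelium form more tuft and goblet cells. The transcription factor Pou2f3 is needed for the lineage, and Gfi1b is a second factor found in it. Dclk1 is a microtubule-binding kinase, Avil an actin-bundling protein of the villin family, and Sh2d6 an SH2-domain adaptor. In whole tissue, fewer tuft cells and less RNA per tuft cell cannot be told apart.

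Trpm5 and Sh2d6 were the pair whose levels ran closest together across mice, and their promoters, the 250 bases before the canonical transcript start (GENCODE, GRCm39), are shown for that reason. Pou2f3 belongs to the POU factors, which bind an octamer with the letters ATGCAAAT, so the windows were searched for it on both strands. Of 17835 protein-coding promoters of this length in the table, 253 held the octamer (1.42%), and those of Trpm5 (chr7:142648380-142648629, minus strand) and Sh2d6 (chr6:72498691-72498940, minus strand) did not, so no letters are in capitals.
Trpm5: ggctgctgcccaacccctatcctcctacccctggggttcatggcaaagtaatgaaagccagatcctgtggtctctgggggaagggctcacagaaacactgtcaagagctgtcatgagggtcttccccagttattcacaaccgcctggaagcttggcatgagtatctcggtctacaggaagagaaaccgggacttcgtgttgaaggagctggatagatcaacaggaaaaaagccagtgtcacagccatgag
Sh2d6: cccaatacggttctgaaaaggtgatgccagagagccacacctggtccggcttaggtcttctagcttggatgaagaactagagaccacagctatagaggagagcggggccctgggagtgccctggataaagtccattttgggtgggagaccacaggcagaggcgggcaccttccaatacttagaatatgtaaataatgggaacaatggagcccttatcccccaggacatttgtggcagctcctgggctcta
Such matches are descriptions of the letters only. Of 44 other tuft cell genes, 4 held the octamer in the same window, Sucnr1, Pou2af2, Hmx2 and Kctd12, named here because they are the whole count.

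Levels were compared between genes as CPM, each count over its library's scaled total in megacounts, divided by the length of the gene's merged exons in kilobases, averaged over the 20 mice. On this scale Sh2d6 stood highest at 2.74 CPM per kb, followed by Avil at 1.93, Dclk1 at 0.745, Trpm5 at 0.664, Alox5 at 0.603, Pou2f3 at 0.427, Gfi1b at 0.165 and Il25 at 0.0729. Dclk1 has 21795 bases of merged exons, which lowers its value, and it had by far the most reads, 9132 counts over all mice. Spread between mice, as the standard deviation over the mean of CPM, was 32.7% for Trpm5, 28.2% for Sh2d6 and 35.8% for Gfi1b, against 17.1% for Avil and 18.3% for Dclk1. Avil shares its locus with Tsfm on the other strand and Trpm5 with Tssc4, and how the authors counted reads by strand is not given in the sources used here.

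Of the signalling genes, Trpm5, the channel that depolarises the tuft cell, was at 4.28, 3.61, 3.67, 3.66 and 4.28 CPM in the mice at 0% RPS, and at 3.06, 1.95, 6.27, 3.72 and 4.02 CPM at 2% RPS. It was at 3.80, 4.60, 4.40, 7.22 and 1.79 CPM at 5% RPS and at 5.74, 3.48, 6.14, 5.78 and 3.53 CPM at 10% RPS. The control mice lay close together, whereas the RPS mice spread to both sides of them, and 3 of the 5 mice at 10% RPS lay above every control. Its log2 fold change at 10% RPS against 0% RPS was 0.34 ± 0.29 (standard error), with an edgeR adjusted p of 0.610. Sh2d6, the adaptor, was at 5.02, 3.96, 3.73, 3.48 and 4.25 CPM without RPS and at 3.82, 3.25, 5.86, 4.04 and 4.02 CPM at 2% RPS. It stood at 4.30, 4.54, 4.46, 8.12 and 2.23 CPM at 5% RPS and at 6.43, 4.79, 6.19, 5.55 and 4.47 CPM at 10% RPS. The highest and the lowest mouse were the same as for Trpm5, and the groups overlapped at every RPS level. Sh2d6 had the largest difference of the tested tuft cell genes at 10% RPS, a log2 fold change of 0.43 ± 0.23 with a 95% confidence interval from -0.05 to 0.90 and an edgeR adjusted p of 0.383.

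Il25, the tuft cell cytokine, was near the limit of detection, with 45 counts over all 20 mice and 0 to 7 counts per mouse. It did not pass the filter on low counts. At 0% RPS the mice held 7, 2, 1, 1 and 4 counts, at 2% RPS 1, 4, 0, 2 and 1, at 5% RPS 1, 5, 3, 3 and 1, and at 10% RPS 3, 2, 0, 3 and 1. A count of 0 still allows up to 3 counts, by counting error only. In an edgeR fit without that filter its log2 fold change was -0.25 ± 0.71 at 10% RPS, 0.03 ± 0.67 at 5% and -0.63 ± 0.72 at 2%, with adjusted p of 0.944, 1 and 1. The interval at 10% RPS ran from a fold of 0.305 to one of 2.32, and any fold between these bounds is compatible with so few counts. Alox5, which starts leukotriene synthesis, was at 2.40 ± 0.540 CPM (SD, n = 5) at 0% RPS, 2.19 ± 0.149 at 2%, 2.82 ± 1.03 at 5% and 2.51 ± 0.320 at 10% RPS. Its largest value, 4.53 CPM, and its smallest, 1.92 CPM, were both in mice at 5% RPS. The paper, which tested with DESeq2, names Alox5 among genes raised by 10% RPS in the distal colon. Its RNASeq figure states more mice per group than the 5 used here. In the present counts the log2 fold change of Alox5 at 10% against 0% RPS was 0.06 ± 0.20, with an edgeR adjusted p of 0.916. DESeq2 did not call it either.

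The transcription factors had few reads. Pou2f3 was at 1.30 ± 0.239 CPM at 0% RPS, 1.36 ± 0.236 at 2%, 1.41 ± 0.482 at 5% and 1.39 ± 0.216 at 10% RPS, so the diet means lay closer to each other than mice of 1 diet did. Its log2 fold change at 10% RPS was 0.10 ± 0.22, and the 95% interval ran from a fold of 0.776 to one of 1.47. Gfi1b, with 3 to 14 counts per mouse, was at 0.295 ± 0.083 CPM without RPS and at 0.343 ± 0.134, 0.232 ± 0.0533 and 0.342 ± 0.134 CPM at 2, 5 and 10% RPS. With so few reads its interval was the widest of the tested tuft cell genes, from a fold of 0.704 to one of 1.86 at 10% RPS.

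**Figure D1:**
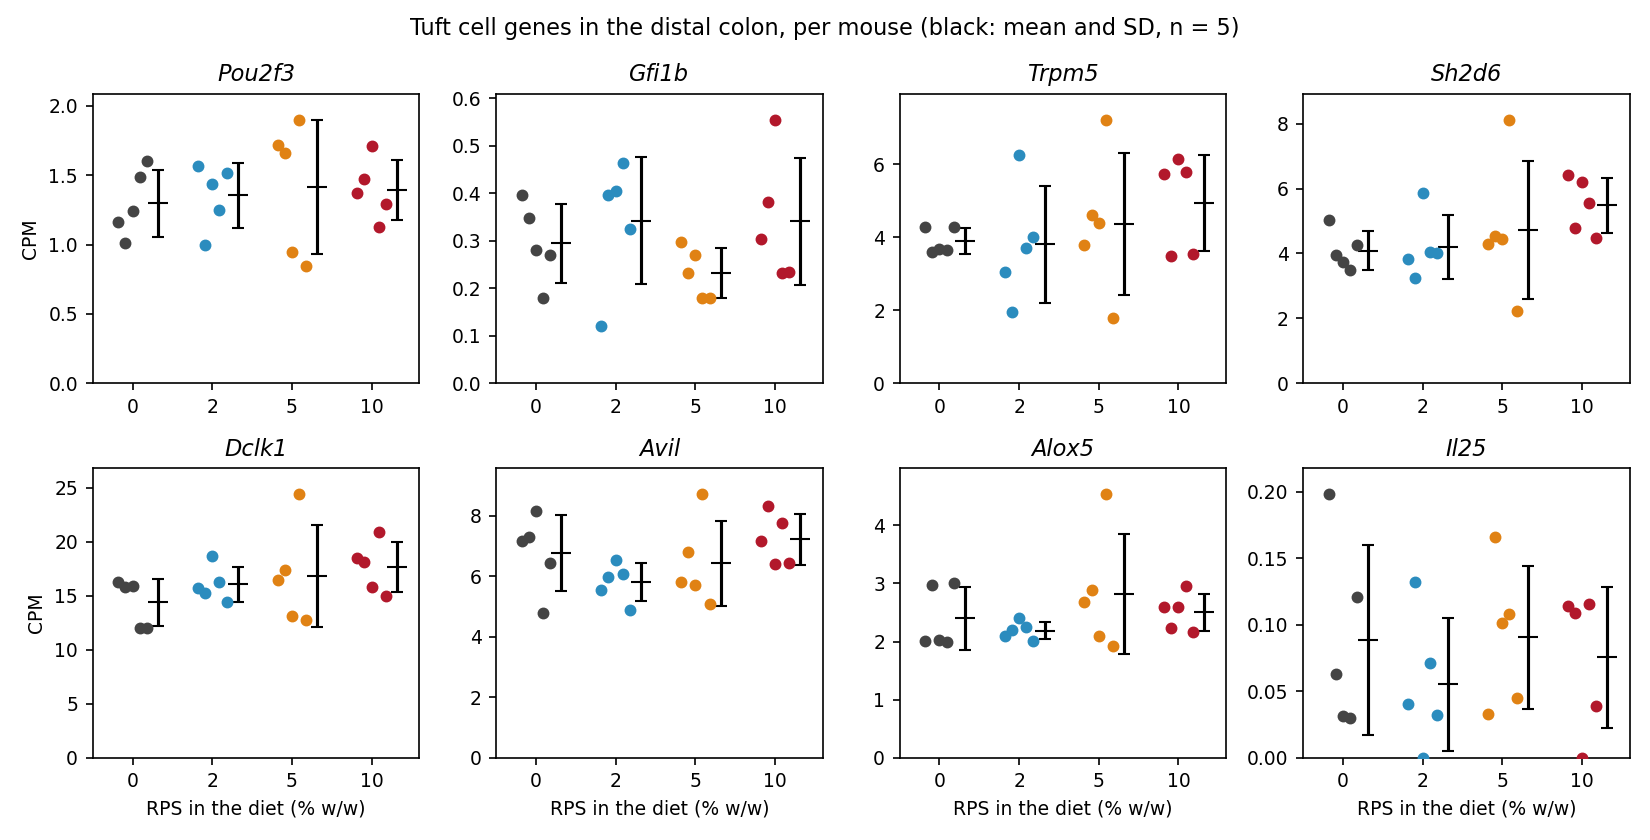
Level of each tuft cell gene in CPM (vertical axis, from 0, own scale per gene) by percent RPS in the diet (horizontal axis), with 1 point per mouse and the mean and SD of 5 mice in black. The groups overlap for every gene, and 1 mouse at 5% RPS stands highest for Pou2f3, Trpm5, Sh2d6, Dclk1, Avil and Alox5.

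The cytoskeletal genes had the most reads. Dclk1 was at 16.3, 15.8, 15.9, 12 and 12 CPM in the control mice and at 15.7, 15.3, 18.7, 16.3 and 14.4 CPM at 2% RPS. At 5% RPS it was at 16.5, 17.4, 13.1, 24.4 and 12.8 CPM, and the mice at 10% RPS held 18.5, 18.1, 15.8, 20.9 and 15.0 CPM. The means of the 4 diets stood in the order of the RPS level, 14.4, 16.1, 16.8 and 17.6 CPM, but the groups overlapped and no neighbouring diets differed past the threshold (edgeR adjusted p of 1 for 2% against 0% RPS, 0.951 for 5% against 2% and 0.961 for 10% against 5%). Its log2 fold change at 10% RPS was 0.29 ± 0.15, with an adjusted p of 0.355 and an interval that reached from a fold of 0.988 to one of 1.52. Avil was at 6.76 ± 1.26 CPM at 0% RPS, 5.80 ± 0.616 at 2%, 6.42 ± 1.41 at 5% and 7.21 ± 0.839 at 10% RPS, and its log2 fold change at 10% RPS was 0.09 ± 0.15.

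Whether RPS changed the tuft cell genes was tested with edgeR's quasi-likelihood test over all genes, a gene being called where its Benjamini-Hochberg adjusted p did not exceed 0.05 and it differed by 1.5-fold or more. At 10% against 0% RPS 0 of the 7 tested tuft cell genes were called, where 0.0391% of all tested genes were (7 genes). At 5% and at 2% against 0% RPS, and between 5% and 2% or 10% and 5% RPS, the count was also 0 of 7, and 0% of all genes were called. A linear trend over percent RPS, tested on the adjusted p alone, was called for 0 of 7 against 2.10% of all genes, and a difference between any diets for 0 of 7 against 0.0727%. At an unadjusted edgeR p under 0.05, 0 of the 7 differed at 10%, 5% or 2% against 0% RPS, where 15.2%, 9.19% and 1.41% of all genes did. In the trend 1 of 7 did, against 19.1% of all genes, and this was Sh2d6, with a slope of 0.044 ± 0.020 log2 units per percent RPS, an unadjusted edgeR p of 0.0394 and an adjusted p of 0.232. DESeq2 also called 0 of the 7 at 10%, 5% and 2% against 0% RPS and in the trend, where it called 1.24%, 0.195%, 0.00386% and 5.61% of the genes it gave an adjusted p. None of the 7 had mice at 10% RPS that all lay outside the range of the controls, a pattern that 2.28% of all tested genes had, and none did at 5% RPS (1.04% of all) or at 2% RPS (0.240% of all).

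The direction was the same for all 7 tested genes at 10% RPS only. Their log2 fold changes against 0% RPS all lay above 0 there, with a median of 0.19 where the median of all tested genes was -0.01, although Alox5 was at -0.10 with counts thinned to the smallest library and Alox5 and Avil were at -0.01 and -0.00 by the treatment label. At 5% RPS 5 lay above 0 and 2 below, with a median of 0.17. At 2% RPS 4 lay above and 3 below, with a median of 0.04. The 7 genes are not independent, since most of them co-varied between mice. The score of epithelial markers was about as high at 5% as at 10% RPS. The mean log2 CPM of 10 epithelial markers was 9.61 ± 0.18 at 0% RPS, 9.71 ± 0.08 at 2%, 9.92 ± 0.20 at 5% and 9.94 ± 0.13 at 10% RPS, and the sum of their CPM ranged from 15307 to 20568 in controls and from 17902 to 21835 at 10% RPS, with no marker at 0 in any mouse. Within the list the log2 fold changes at 10% RPS were uneven, 1.44 ± 0.44 for Cdx2 and 0.91 ± 0.23 for Krt20 but 0.05 for Epcam, 0.04 for Cdx1 and -0.02 for Lgals4, with a median of 0.09 and 0 of 10 called by edgeR (3 at an unadjusted p under 0.05). With this score as a covariate, the log2 fold change at 10% RPS was -0.04 for Dclk1, -0.07 for Trpm5, -0.03 for Pou2f3, -0.19 for Avil, -0.26 for Alox5, 0.00 for Sh2d6 and 0.12 for Gfi1b, all with an edgeR adjusted p of 1. The score and the diet overlap in what they describe, because the score itself ran from 9.35 to 9.81 in controls and from 9.81 to 10.14 at 10% RPS.

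**Figure D2:**
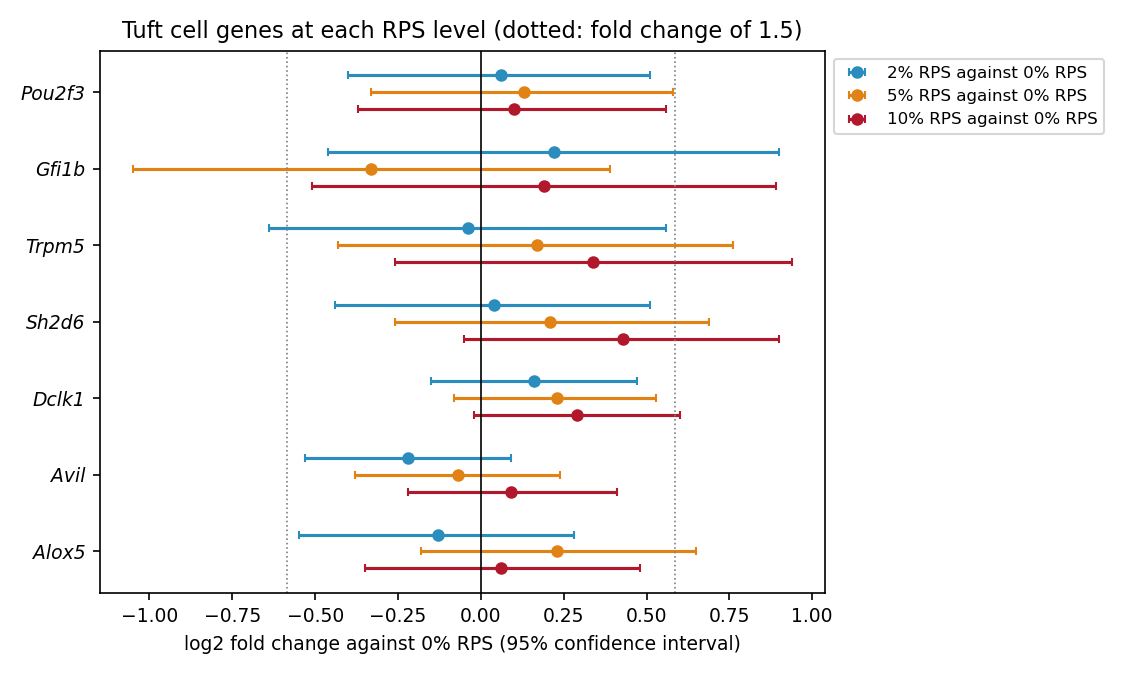
Log2 fold change against 0% RPS (horizontal axis) of the 7 tested tuft cell genes (vertical axis) at 2, 5 and 10% RPS. Points are edgeR estimates, bars their 95% confidence intervals, and dotted lines a fold change of 1.5, and every interval holds 0.

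Single mice of the same diet could lie far apart. The mouse with the highest mean standardised level over the 7 tested genes was RS10_721 at 5% RPS, at 1.62. The lowest, RS10_724, lay at -1.68 and came from the same diet. These values are averages over genes, each gene in its own standard deviations. Dclk1 was 24.4 CPM in the one and 12.8 CPM in the other, Trpm5 7.22 and 1.79 CPM, and Sh2d6 8.12 and 2.23 CPM. Over all 20 mice the highest value was 4.04 times the lowest for Trpm5, 3.64 times for Sh2d6 and 2.04 times for Dclk1. The diet means of the standardised level were -0.18 ± 0.41 at 0% RPS, -0.21 ± 0.54 at 2%, -0.03 ± 1.21 at 5% and 0.42 ± 0.42 at 10% RPS. RS10_721 stood apart in other ways too, since 6 pancreas genes summed to 3768 CPM there against 0.0621 to 9.26 CPM in 18 other mice, its epithelial score was the highest of all at 10.25 and its smooth muscle score the lowest at 9.16. A second mouse, RS10_784 at 10% RPS, held 323 CPM of these pancreas genes, and without it all 7 tested genes still lay above 0 at 10% RPS, with a median log2 fold change of 0.31 and none called by edgeR. RS10_724 had the fewest counts of the 5% RPS mice, 22318531. Without RS10_721 the log2 fold change at 5% against 0% RPS was 0.05 for Dclk1 in place of 0.23, -0.09 for Trpm5 in place of 0.17, -0.07 for Sh2d6 in place of 0.21 and -0.00 for Alox5 in place of 0.23. Without RS10_724 the 4 values were 0.30, 0.35, 0.38 and 0.33, and edgeR called none of them either way.

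How far the genes behaved as the marks of 1 cell type was examined by correlating their log2 CPM across the 20 mice. Of 21 pairs of tested genes, 11 had a Pearson r past the threshold (permutation test with 100000 permutations, two-sided, adjusted over the 21 pairs), and 19 had an r above 0, with a median of 0.55. Trpm5 and Sh2d6 were the closest pair, with r = 0.92, Spearman's rho = 0.82 and a permutation p of 1e-05, the smallest these permutations can give (adjusted p of 0.00021). It held at r = 0.90 without the 2 mice farthest from the median of Trpm5, RS10_712 and RS10_724. As deviations from the diet means r was 0.93, and it was 0.92 within diets and without RS10_721. Next came Dclk1 with Avil (r = 0.74, rho = 0.74, permutation adjusted p of 0.00259) and Dclk1 with Sh2d6 (r = 0.73, rho = 0.71, adjusted p of 0.00259).

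The count of pairs that passed depended on which mouse was left out. Without RS10_721, 3 of the 21 pairs passed the threshold, and without RS10_724 7 did. Leaving out any other single mouse gave 9 to 13. As deviations from the diet means and without RS10_721, 2 pairs passed, Trpm5 with Sh2d6 and Dclk1 with Avil (r = 0.80). Pou2f3 correlated with Trpm5 at r = 0.56 (rho = 0.39, permutation adjusted p of 0.0194) and with Sh2d6 at r = 0.55 (rho = 0.38, adjusted p of 0.0198), and neither pair passed by ranks, where both adjusted p were 0.169. Alox5 correlated with Sh2d6 at r = 0.65 (rho = 0.55, permutation adjusted p of 0.0137), which was 0.38 without the 2 mice farthest from the median of Sh2d6. Alox5 with Trpm5 was at r = 0.60 (rho = 0.53, permutation adjusted p of 0.0194) and 0.50 to 0.64 with single mice left out. It was 0.62 without the 2 mice farthest from the median of Trpm5, but these were RS10_712 and RS10_724, against RS10_721 and RS10_724 for Sh2d6. Without RS10_721 alone the 2 pairs were alike, with r = 0.50 for Alox5 with Trpm5 and 0.47 for Alox5 with Sh2d6. Gfi1b was in none of the 11 pairs, its r ranging from -0.08 with Alox5 to 0.23 with Sh2d6. After removing a line on the epithelial score, 3 of 21 pairs passed, and Trpm5 with Sh2d6 stood at r = 0.91.

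**Figure D3:**
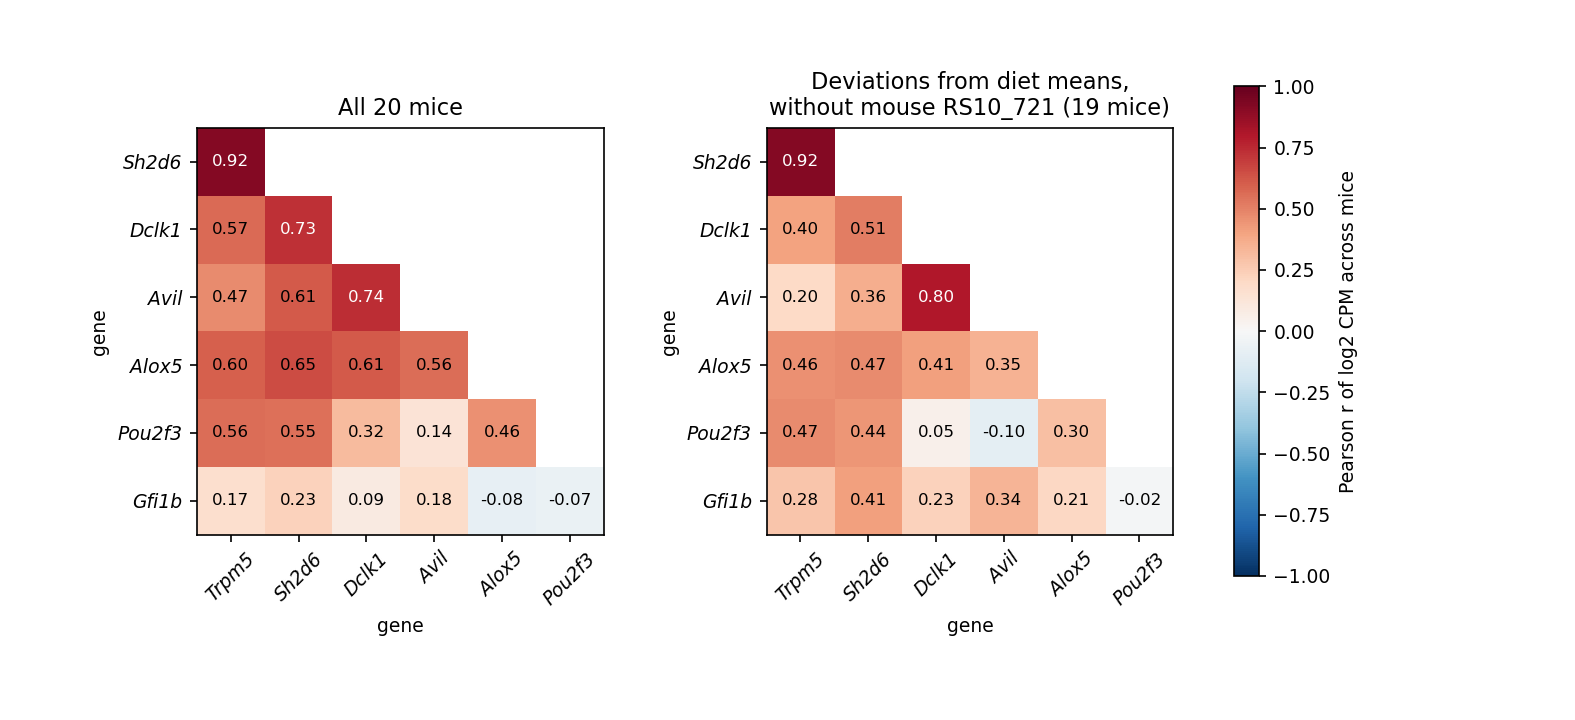
Pearson r of log2 CPM across mice for each pair of the 7 tested tuft cell genes (both axes), in all 20 mice (left) and as deviations from the diet means without mouse RS10_721 (right). The colour scale runs from -1 to 1, and Trpm5 with Sh2d6 stays at 0.92 on both sides while most other pairs are paler on the right.

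**Figure D4:**
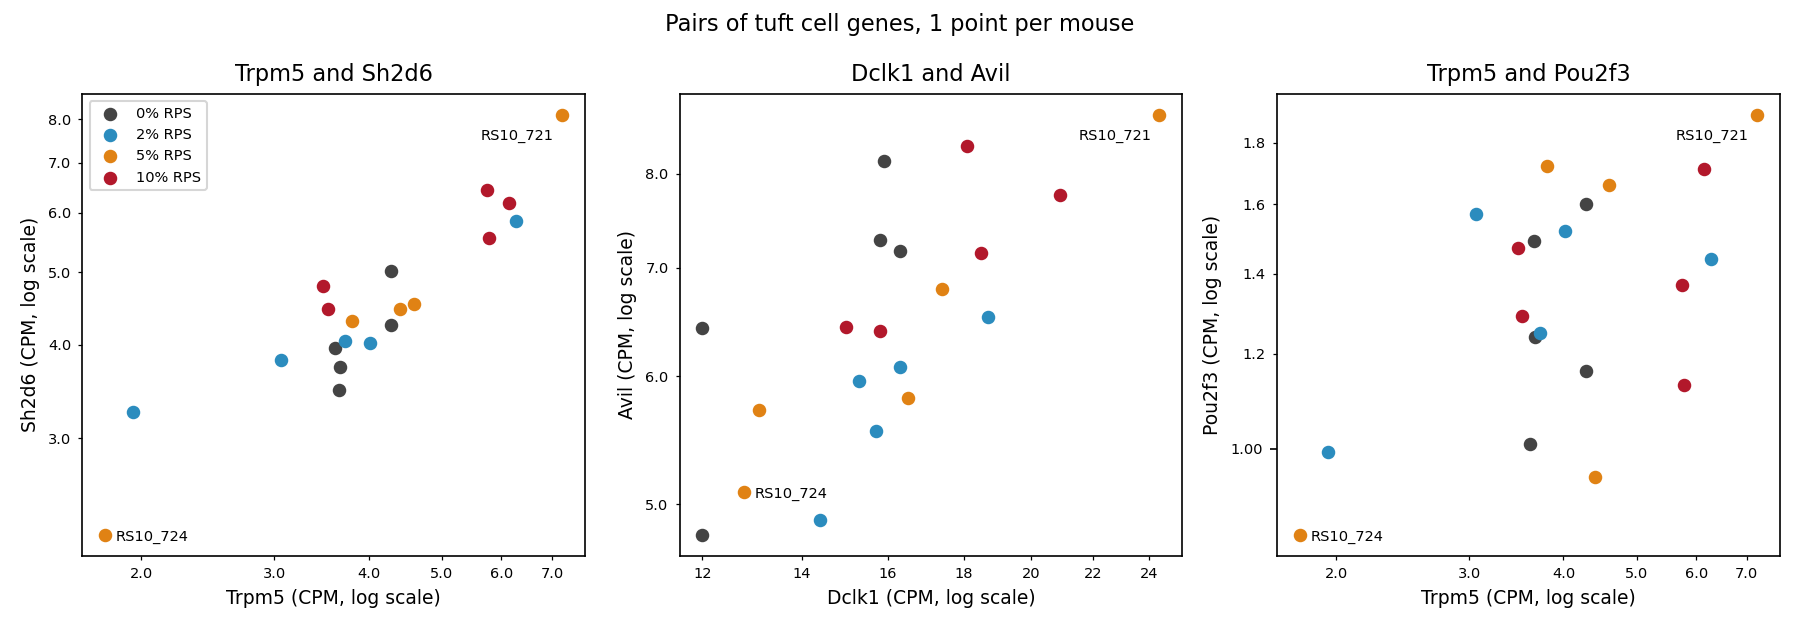
Level in CPM on log axes of Sh2d6 against Trpm5, Avil against Dclk1, and Pou2f3 against Trpm5, with 1 point per mouse coloured by diet. The mice of all 4 diets lie along 1 band for Trpm5 and Sh2d6 (r = 0.92), and RS10_721 and RS10_724 mark the ends.

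Several of these genes are also used by other cells of the colon, so each tested gene was set against marker scores of 12 other cell types and tissues. Of the 84 relations, 5 passed a permutation test adjusted over all 84, with adjusted p between 0.0479 and 0.0494. Trpm5 and Sh2d6 correlated with the enteroendocrine score (r = 0.70, rho = 0.65 and r = 0.63, rho = 0.61, permutation adjusted p of 0.0479 and 0.0494). Without the 2 mice farthest from the median of the score, r was 0.79 and 0.75. Trpm5 and Alox5 correlated inversely with the smooth muscle score (r = -0.65, rho = -0.54 and r = -0.66, rho = -0.48, permutation adjusted p of 0.0494 for both), which was -0.40 and -0.38 without the 2 farthest mice. Dclk1 followed the epithelial score (r = 0.68, rho = 0.55, permutation adjusted p of 0.0494), and r was 0.40 without RS10_707 and RS10_721. Alox5 with the enteroendocrine score (r = 0.60, rho = 0.67) and Trpm5 with the goblet cell score (r = 0.61, rho = 0.50) narrowly missed. Both had a permutation adjusted p of 0.0529. By ranks, as deviations from diet means, or without RS10_721, 0 of the 84 passed, the smallest adjusted p within diets being 0.0508, and leaving out single mice gave 0 to 6.

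The markers of those other users did not pass with them. Dclk1 and Avil, both found in neurons, had an r of 0.09 and 0.04 with the score of enteric neurons and glia, at permutation adjusted p of 0.856 and 0.926. As deviations from the diet means r was 0.26 and 0.42 (permutation adjusted p of 0.547 and 0.255). Alox5, an enzyme of myeloid cells, had an r of 0.11 with the macrophage and neutrophil score and of -0.04 with the mast cell and basophil score (permutation adjusted p of 0.804 and 0.932), but without RS10_721 the first was 0.49, and 0.64 within diets and without RS10_721 (permutation p of 0.00271, adjusted p of 0.108). Gfi1b, which megakaryocytes and red cell precursors use, had an r of 0.34 with their score (permutation adjusted p of 0.386). A p that misses the threshold does not show that these cells add nothing to the values.

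The genes most like the tuft cell genes were sought among 15226 other tested genes that averaged 1 CPM or more. The 10 with the highest r with the mean standardised level over the 20 mice were Sh2d7 (0.83), Epb41l5 (0.80), Upk3b (0.80), Ccng2 (0.80), Prg4 (0.79), Rmc1 (0.79), Pik3r5 (0.79), Ang4 (0.79), St18 (0.78) and Rgs13 (0.77). These values are descriptions, chosen as the highest of many. Sh2d7, Pik3r5 and Rgs13 are on a list of other tuft cell genes, and Upk3b and Prg4 are known from the mesothelium that covers the gut. For Sh2d6 the nearest gene was Sh2d7 at r = 0.88, and for Trpm5 they were Epb41l5, Rgs13 and Sh2d7 at 0.83, 0.83 and 0.82. Dclk1 was nearest to Fam98a, Elf4 and Cdx2 (0.83, 0.83 and 0.80), and Cdx2 is itself on the epithelial list. Pou2f3 was nearest to Foxd2, Hao2 and Uqcrfs1 (0.72, 0.72 and 0.71), Avil to Rspo1, Exoc3l and Rasl10b (0.74, 0.73 and 0.71), and Alox5 to Zxdb, St18 and Matk (0.79, 0.78 and 0.77). Gfi1b was nearest to Hps3, Il13ra2 and Epha5, at 0.68, 0.59 and 0.58.

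The other genes of the tuft cell programme, 47 listed for taste signalling, eicosanoids and acetylcholine, transcription, and receptors, adaptors and cytoskeleton, had 44 rows, of which 41 were tested. Of these 34 had a mean of at least 1 CPM, and their median r with the mean of the 7 tested genes was 0.21, where the median of all compared genes was -0.01, with 23 of 34 above that. The adaptor Sh2d7, the kinase gene Matk (0.69), the coactivator Pou2af2 (0.64) and Chat (0.61), which makes acetylcholine, stood at the upper end. The lower end held Irag2 (-0.55), the prostaglandin D synthase gene Hpgds (-0.49), the phosphatase gene Ptpn18 (-0.46) and Ptgs1 (-0.38).

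**Figure D5:**
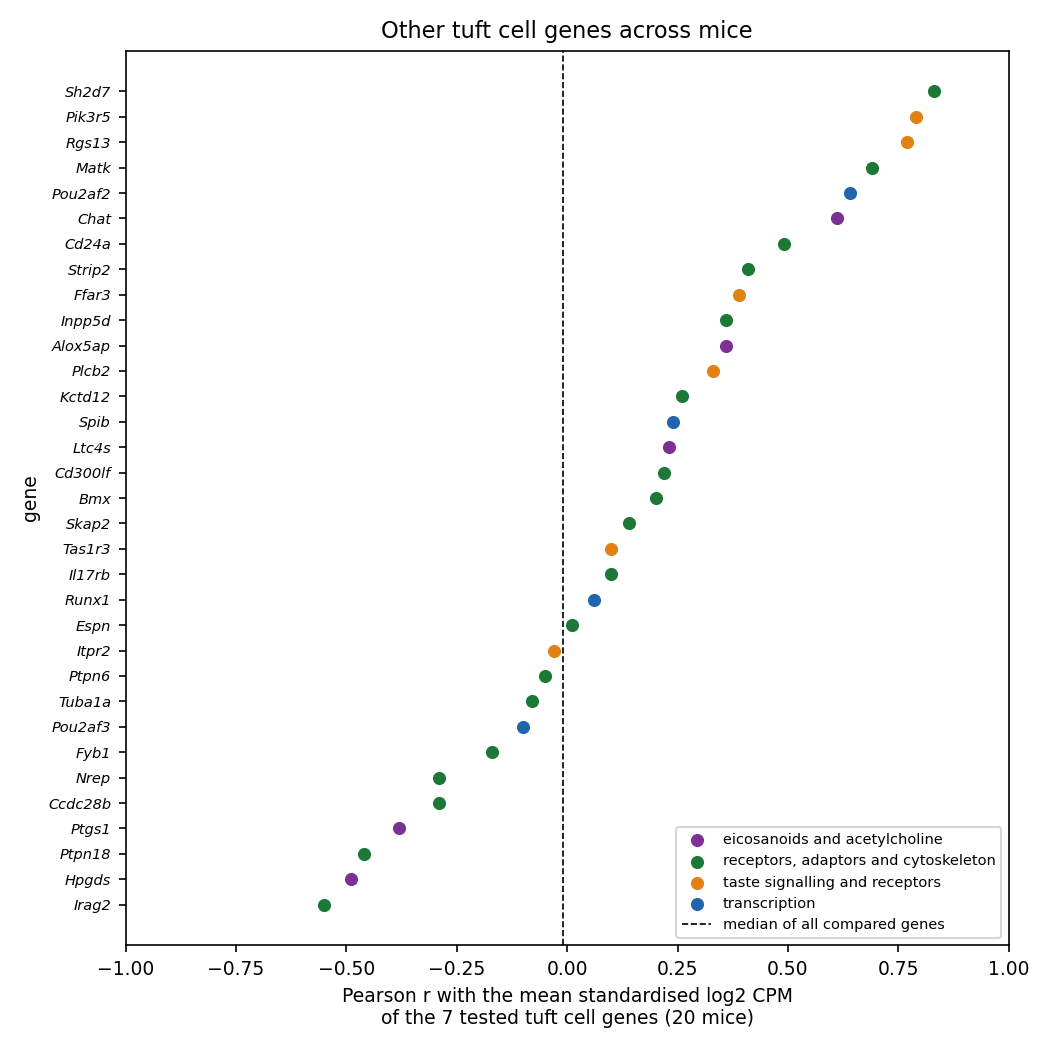
Pearson r of each of 33 of the 34 other tuft cell genes (vertical axis, coloured by role) with the mean standardised log2 CPM of the 7 tested tuft cell genes over 20 mice (horizontal axis). The dashed line is the median of all compared genes, -0.01, and the genes run from Sh2d7 at 0.83 to Irag2 at -0.55.

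The diets were compared for these other genes too. At 10%, 5% and 2% against 0% RPS 0 of 41 were called by edgeR (0.0391%, 0% and 0% of all genes), and DESeq2 called 0 in each, while 9, 5 and 0 of them had an unadjusted edgeR p under 0.05, where 15.2%, 9.19% and 1.41% of all genes did. Their median log2 fold change at 10% RPS was 0.08, with 24 above 0 and 17 below. The trend over percent RPS was called for 2 of 41 against 2.10% of all genes, and both fell. DESeq2 called 3 in the trend (5.61% of all genes), these 2 and Cd300lf, which rose by 0.078 log2 units per percent RPS (DESeq2 adjusted p of 0.049). Ccdc28b fell by 0.048 ± 0.013 log2 units per percent RPS (edgeR adjusted p of 0.0453), from 15.4 ± 3.13 CPM at 0% RPS to 11.6 ± 1.53 at 10%. Ptpn18, a tyrosine phosphatase, fell by 0.029 ± 0.007 log2 units per percent (adjusted p of 0.0434), from 58.0 ± 6.53 to 46.9 ± 3.90 CPM. With 1 mouse left out at a time, Ccdc28b was called in 7 and Ptpn18 in 8 of 20 fits, and both calls were lost without the 3 mice with disagreeing labels and with the epithelial score as a covariate. The largest differences at 10% RPS among these genes were those of Cd300lf, Rgs13 and Sh2d7, with log2 fold changes of 0.68 ± 0.25, 0.66 ± 0.30 and 0.59 ± 0.28 and edgeR adjusted p of 0.201, 0.294 and 0.320. Rgs13 and Sh2d7 were also among the 3 genes nearest to Trpm5 across mice.

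The type 2 response, which tuft cells drive through Il25, was read from 19 listed genes, of which 18 had a row and 15 were tested. Il13 reached at most 0.107 CPM in a mouse and Il5 at most 0.165 CPM, and neither was tested. By edgeR 0 of 15 were called at 10%, 5% or 2% RPS or in the trend, with 5, 3, 0 and 5 at an unadjusted p under 0.05, where 15.2%, 9.19%, 1.41% and 19.1% of all genes were. DESeq2 called 1 at 10% RPS (Clca1), 2 at 5% RPS (Ang4 and Retnlb) and 3 in the trend (Ang4, Clca1 and Il13ra1), against 1.24%, 0.195% and 5.61% of all genes. Retnlb, a goblet cell product, had the largest log2 fold change at 10% RPS of those averaging 1 CPM or more, 3.31 ± 1.66 (edgeR adjusted p of 0.354), from 0.0613 ± 0.0731 CPM at 0% RPS to 0.622 ± 0.808 at 10%. Retnlb averaged 1 CPM or more only through its mean at 5% RPS, 5.32 ± 10.1 CPM, which held a value of 23.4 CPM in RS10_721. Its means at 0, 2 and 10% RPS lay under 1 CPM, and its median over the mice was 0.175 CPM. Its rank at 10% RPS therefore rests on few reads. Ang4, an antimicrobial protein of Paneth and goblet cells, had a log2 fold change of 3.29 ± 1.36 (edgeR adjusted p of 0.263), from 0.619 ± 0.712 CPM at 0% RPS to 6.10 ± 6.07 at 10%, and reached 98.7 CPM in RS10_721. Il1rl1, the receptor of Il33, was at 2.02 ± 0.849 CPM at 0% RPS and 6.04 ± 1.74 at 10% (log2 fold change 1.58 ± 0.57, edgeR adjusted p of 0.201). Clca1, a goblet cell product, was at 1732 and 2923 CPM on average (log2 fold change 0.75 ± 0.25, edgeR adjusted p of 0.160).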

How the data were processed

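Polyadenylated RNA of 20 distal colons was sequenced from stranded libraries as short single reads. The authors trimmed low-quality bases, mapped reads to GRCm39 in CLC Genomics Workbench 20.01 and deposited raw counts per gene, with no normalisation. Which annotation was used, and how reads matching several genes or either strand were counted, is not given in the sources used here. Symbols, positions and exon lengths came from GENCODE vM39, which held 26338 of the 26619 identifiers.

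Counts were filtered (filterByExpr, minimum count 10), scaled by TMM and fitted in edgeR 4.0.16 (R 4.3.3), with 1 robust quasi-likelihood fit over 4 diets and Benjamini-Hochberg adjustment over all 17893 tested genes. DESeq2 1.42.0 was an alternative, with the authors' thresholds. CPM (counts per megacount) used TMM-scaled totals. A prior count of 2 entered log2 CPM. Scores are the mean log2 CPM of a marker list. Standardised levels are log2 CPM minus the mean over mice, divided by the SD. Nothing says that mice came from separate cages or litters, so p-values measure the spread between these mice. Pairs of mice within a diet differed beyond sampling noise (chi-square per degree of freedom of at least 9.38).

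The 8 genes and all lists were chosen with earlier results of these data known. Named are all 8 genes; from the other tuft cell and type 2 lists, genes called by edgeR and the 3 largest log2 fold changes at 10% RPS among genes of at least 1 CPM; and the nearest genes by r. Genes named for DESeq2 calls or at the ends of the ranking by r were chosen after their values were seen. Promoters are given for 2 of the 8 genes. The values of 1 of the other tuft cell genes are not reported here, though counts and medians over the list include that gene.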

Additional observations from a re-analysis of the deposited data

Results flagged for a closer look

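Among 40 checks for a mouse far from the other 4 of its diet, 2 passed, and chance gives 2. At 0% RPS the lowest mean standardised level of the 7 tested tuft cell genes, -0.888 in mouse RS10_707, lay far from the next, -0.124. Dclk1 (12 CPM), Avil (4.79 CPM), Sh2d6 (3.48 CPM), Alox5 (1.99 CPM) and Gfi1b (0.179 CPM) were each lowest of the controls in that mouse, while Pou2f3 was at 1.49 CPM there, above the control mean of 1.30 CPM. Its epithelial score, 9.35, was the lowest of all mice. At 5% RPS the total count of mouse RS10_724, 22318531, lay far from the next of its diet, 28696476, and that mouse was lowest of its diet for 7 of the 8 genes, Il25 excepted.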

How the results depend on the processing

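Under every alternative run and with each mouse left out, the count of the 7 tested tuft cell genes called in a contrast, the trend or any diet difference stayed at 0, so none of their calls depended on the processing, with Gfi1b left untested after thinning, where it did not pass the filter. Directions at small fold changes did. With the epithelial score as a covariate, the log2 fold changes at 10% and 5% RPS against 0% RPS were -0.04 and -0.13 for Dclk1, -0.03 and -0.00 for Pou2f3, -0.07 and -0.28 for Trpm5 and -0.26 and -0.10 for Alox5, against -0.19 for Avil at 10% RPS and, for Sh2d6, -0.25 at 5% and -0.11 at 2% RPS. By the treatment label Avil and Alox5 were at -0.00 and -0.01 at 10% RPS, with Dbp as a covariate Alox5 was at -0.01 there and Sh2d6 at -0.01 at 2% RPS, and after thinning to the smallest library Alox5 was at -0.10 at 10% RPS and Avil at 0.05 at 5% RPS. The cause was not tested, and all 7 genes kept an adjusted p of at least 0.241 at 10% RPS.

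Leaving out each mouse moved the log2 fold change at 5% RPS from -0.00 to 0.25 for Pou2f3, from -0.09 to 0.35 for Trpm5, from -0.07 to 0.38 for Sh2d6 and from -0.00 to 0.33 for Alox5. At 2% RPS it ran from -0.02 to 0.15 for Pou2f3, from -0.29 to 0.13 for Trpm5 and from -0.11 to 0.12 for Sh2d6, and at 10% RPS from -0.00 to 0.17 for Avil, from -0.00 to 0.16 for Alox5 and from -0.05 to 0.33 for Gfi1b.

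The 11 pairs that co-varied became 7 after thinning, 2 within diets without RS10_721, 3 after removing a line on the epithelial score, and 3 to 13 when single mice were left out. Pairs with Gfi1b or Pou2f3 changed sign. Alox5 with Gfi1b was at r = 0.13 by Spearman, 0.04 within diets and 0.21 within diets without RS10_721, Pou2f3 with Gfi1b at 0.07 after thinning, and Pou2f3 with Avil at -0.10 within diets without RS10_721. Single mice moved r from -0.03 to 0.31 for Dclk1 with Gfi1b, from -0.02 to 0.21 for Pou2f3 with Avil, from -0.24 to 0.05 for Pou2f3 with Gfi1b and from -0.19 to 0.18 for Alox5 with Gfi1b. The 5 relations with marker scores became 0 by Spearman, within diets, without the 3 mice with disagreeing labels and within diets without RS10_721, 2 after thinning, 7 by RLE scaling, and 0 to 6 over single mice.

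Of the other tuft cell genes, the 2 with a trend became 3 with DESeq2, 1 by RLE scaling and after thinning, 0 by the treatment label, without the 3 mice with disagreeing labels, and with the epithelial score or Dbp as a covariate, and 0 to 3 over single mice. Type 2 response genes called went from 0 to 1 at 10% RPS, 2 at 5% RPS and 3 in the trend with DESeq2, and to between 0 and 2 in the trend over single mice. The pair correlations within diets without RS10_721 and on the epithelial score were added after seeing the data. No paired analysis was possible because mouse numbers are unique to each animal. Depth limits Il25 and Gfi1b most, with at most 7 and 14 counts per mouse.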
